A study of Homo sapiens with 24 samples.

Results

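MX1, MX2, IFI6, IFI27, IFI44, IFI44L, RSAD2, BST2, RTP4 and ETV7 are 10 genes that interferon switches on, and their transcripts were followed in BT549, a human cell line of triple negative breast cancer with a mesenchymal character. They were taken by symbol, as genes of the interferon response several of which showed the largest differences in a MYC knockdown, so their values in that knockdown are a description and carry no test. All 10 were listed among 15665 genes in the knockdown table and among 17796 genes in the inhibitor table. The table of the MB-3 experiment listed 10048 genes and 5 of the 10, namely MX1, MX2, IFI6, IFI44 and BST2. The series holds 24 libraries of RNA depleted of ribosomal RNA, made from cells labelled wild type, and 3 libraries stand for each of 8 groups in 3 experiments.

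In the knockdown, MYC was targeted over 72 h with pooled siRNAs (siMYC), and siCtl names the control cells. In the inhibitor experiment, cells received KJ-PYR-9 with a treatment labelled DEX (KJ-PYR-9+DEX), KJ-PYR-9 alone, DEX alone, or vehicle (VEH). KJ-PYR-9 is a small molecule that inhibits MYC and was used at 40 µM for 3 h, and the dose and time of DEX are not given. In the MB-3 experiment, cells received MB-3, an inhibitor of the acetyltransferase KAT2A, at 100 µM for 3 h (MB3), or a separate vehicle (VEH2). The library MB3 1 carries the name MED3 in its title and MB3 in its treatment field, and was taken as MB3. Times of the control treatments are not given. All libraries come from 1 cell line, and the labels number replicates as biological without saying how they were made.

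Type I interferons bind a receptor at the cell surface, made of IFNAR1 and IFNAR2. The Janus kinases JAK1 and TYK2 then activate transcription factors of the STAT family, which join IRF9 and bind the interferon-stimulated response element in promoters. The genes switched on there include enzymes and membrane proteins that hinder viruses at entry, replication or budding. Cells without virus can show such a programme too, through interferon or through sensors of nucleic acids.

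Levels are normalized counts, that is, reads divided by a size factor of each library, and the 3 tables were normalized separately. Knockdown libraries held 18.77 to 24.15 M recovered reads, inhibitor libraries 5.582 to 30.76 M, and MB-3 libraries 8.306 to 19.96 M. The library DEX 1 stood apart, with the lowest depth and 26.04% of its reads on features without a gene symbol, against 1.618% to 1.861% in the VEH libraries. MYC averaged 1718 ± 67.2 in siMYC and 2240 ± 91.2 in siCtl (SD, n = 3 each), lower but short of the threshold (limma adjusted p = 0.0587). With division by the total reads of each library, chosen after seeing the data, it was called lower. Its log2 difference was then -0.44 (limma adjusted p = 0.046), where 6.54% of all genes were called lower. The mesenchymal marker VIM lay between 9614 and 29321 in all libraries, and of 5 breast receptor and epithelial genes ESR1, PGR and EPCAM were not listed in the knockdown table. The other 2 were called higher in siMYC, CDH1 with means of 376.6 in siMYC and 89.98 in siCtl (log2 difference 2.04, limma adjusted p = 0.014) and ERBB2 with 1965 in siMYC and 1249 in siCtl (log2 difference 0.65, limma adjusted p = 0.0324). FN1, 1 of 5 genes listed as markers of the line, was called higher too, by 1.18 in log2 units, and the other 4 were not called. Of the 5, 4 had a positive difference and 1, ZEB1, a negative one. ZEB1 had 2894, 790.5 and 1195 normalized counts in siMYC, against 2137, 2098 and 1872 in siCtl. The part of these genes in the differences of the effectors was not tested. Of 12 leukocyte markers, 3 were listed in the knockdown, with summed levels of 224.3 to 232.8 in siMYC and 252.9 to 296.5 in siCtl.

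The promoters of these genes are shown for the interferon-stimulated response element. The genes were chosen as genes of the interferon response, so matches are likely from the choice itself, and their share is a description. RefSeq windows on GRCh38.p14, from 250 bases before to 50 bases after a transcription start, were at hand for 8 of the 10 genes and 13 starts. The core of the interferon-stimulated response element, taken as 2 copies of GAAA with 2 bases of any kind between them, on either strand, occurred in 11 of the 13 windows and in at least 1 window of all 8 genes, against 3.57% of the 35116 windows of all genes. The E-box CACGTG, the motif that MYC binds with MAX, occurred in 0 of the 13 windows and in 7.26% of all windows. With 13 windows, 0 matches cannot be told apart from that share. These matches of letters describe the sequence and do not show binding. In the stretches that follow, read 5′ to 3′ on the strand of the gene, capitals mark the matches, and they read as copies of TTTC where the match lies on the other strand.
MX1, chr21:41420559-41420588, plus strand: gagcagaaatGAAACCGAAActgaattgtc
IFI6, chr1:27672266-27672358, minus strand: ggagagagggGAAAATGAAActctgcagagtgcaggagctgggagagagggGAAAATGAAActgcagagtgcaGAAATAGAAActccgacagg
IFI27, chr14:94110618-94110660, plus strand: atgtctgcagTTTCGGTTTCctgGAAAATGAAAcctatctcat
IFI44, chr1:78649761-78649788, plus strand: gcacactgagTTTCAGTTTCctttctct
IFI44L, chr1:78620274-78620394, plus strand: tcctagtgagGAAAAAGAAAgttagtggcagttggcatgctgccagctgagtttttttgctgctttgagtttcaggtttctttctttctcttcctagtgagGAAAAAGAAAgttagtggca
RSAD2, chr2:6877622-6877651, plus strand: ctgtttcaacTTTCAGTTTCacatgtggaa
BST2, chr19:17405735-17405770, minus strand: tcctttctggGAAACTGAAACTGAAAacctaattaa
RTP4, chr3:187368333-187368384, plus strand: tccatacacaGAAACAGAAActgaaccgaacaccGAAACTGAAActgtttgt

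The 2 matches of BST2 overlap, and IFI6 holds 3 matches, the most of any window here. The match of MX1 shown lies 11 bases after its start, and that of IFI44 begins 18 bases before its start. MX2 and ETV7 are named here without a sequence. MX2 lies 11.2 kb before MX1 on chromosome 21, and IFI44L lies 3.64 kb before IFI44 on chromosome 1, each pair on the plus strand of GRCh38.p14.

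**Figure D1:**
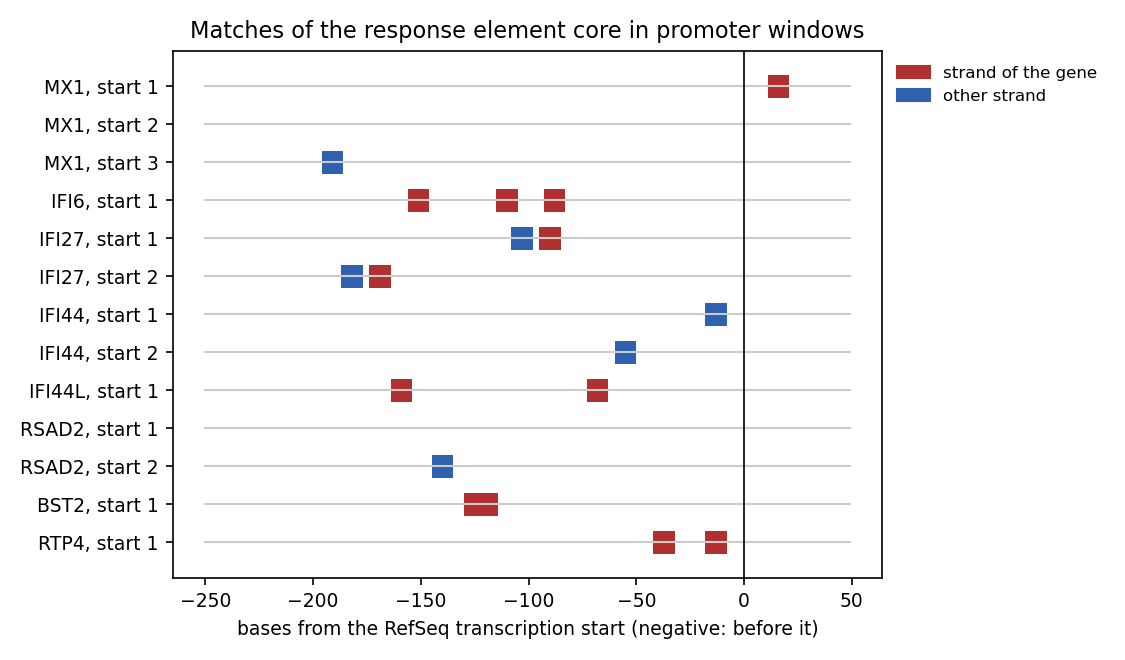
Positions of the element core in 13 RefSeq promoter windows of 8 genes, in bases from the transcription start (horizontal axis), with red boxes for matches on the strand of the gene and blue boxes for the other strand. Matches stand in 11 windows, and the second start of MX1 and the first of RSAD2 have none.

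In cells with siMYC, all 10 genes stood above siCtl in every library. The genes were chosen with this contrast in view, and the share of all genes without overlap was not counted. Nothing is therefore read from the lack of overlap. In bulk RNA, more RNA per cell and a larger share of cells with the RNA cannot be told apart. MX1, a dynamin-like GTPase that traps viral nucleoproteins, had 39709, 27187 and 48634 normalized counts in siMYC, against 1800, 1275 and 293.5 in siCtl. Its group means differed 34.3-fold, and the lowest siMYC library was 15.1 times the highest siCtl library. MX2, the related GTPase known for restricting HIV-1, had 1095, 754.7 and 1525 in siMYC, against 442.6, 450.2 and 304.4 in siCtl. With a log2 difference of 1.46, against 5.41 for MX1, MX2 showed the smallest difference of the 10 genes.

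IFI6 and IFI27 encode small hydrophobic membrane proteins of 1 family. IFI6 had 22478, 17057 and 33603 normalized counts in siMYC, against 1523, 1187 and 684.1 in siCtl. IFI27 had 1478, 598.3 and 3919 in siMYC, against 36.6, 45.8 and 16.7 in siCtl. The groups lay apart in both genes, with log2 differences of 4.45 for IFI6 and 5.59 for IFI27, while IFI27 spread more among the siMYC libraries.

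IFI44 and IFI44L encode related cytoplasmic proteins with reported antiviral activity. IFI44 had 5346, 2005 and 5000 normalized counts in siMYC, against 539.5, 427.3 and 203.2 in siCtl. IFI44L had 11966, 2209 and 11347 in siMYC, against 390.3, 264.9 and 58.5 in siCtl. In both genes siMYC 2 was well below the other siMYC libraries yet above all siCtl libraries, and the log2 differences were 3.38 for IFI44 and 5.19 for IFI44L.

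RSAD2 encodes viperin, an enzyme that makes a chain-terminating nucleotide. It had 4639, 1650 and 6229 normalized counts in siMYC, against 185.7, 188.6 and 51.8 in siCtl, a log2 difference of 4.88. Its 5′ end overlaps CMPK2, transcribed from the opposite strand, and MX1, IFI6 and ETV7 have annotated antisense partners. Since strandedness is not given, reads of such partners cannot be told apart. BST2, or tetherin, which holds budding virions at the cell surface, had 7545, 4829 and 13202 in siMYC, against 764.7, 593 and 266.8 in siCtl, a log2 difference of 3.98.

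RTP4, a chaperone of receptors at the membrane, had 129.8, 70.8 and 273.5 normalized counts in siMYC, against 1.98, 4.36 and 0 in siCtl. ETV7, a repressor of the ETS family, had 182.3, 76.9 and 313.3 in siMYC, against 5.93, 6.54 and 0 in siCtl. These 2 genes were near absence without the knockdown, with 6 reads of RTP4 and 12 reads of ETV7 over the siCtl libraries. Both passed the minimum mean of 10 only through siMYC, and 0 reads in siCtl 3 allow up to 2.51 normalized counts (3 reads, counting error only). Their log2 differences, 5.77 for RTP4 and 5.46 for ETV7, are on the scale of log2(normalized count + 1), which understates changes of low genes.

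The median log2 difference of the 10 genes was 5.03, against 0.048 over the 14788 genes tested. All 10 were called higher where 11.4% of all genes were called higher, a count that the choice of the genes fixes and from which nothing is read. The library siMYC 2 was the lowest of its group for all 10 genes, and siCtl 3 was the lowest of its group for all 10. siMYC 3 was the highest for 8 genes and siMYC 1 for IFI44 and IFI44L. Leaving out 1 library at a time moved the median between 4.32, without siCtl 3, and 5.55, without siMYC 2. Together the 10 genes took 0.442%, 0.269% and 0.588% of the reads in siMYC, against 0.0281%, 0.0217% and 0.0093% in siCtl.

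**Figure D2:**
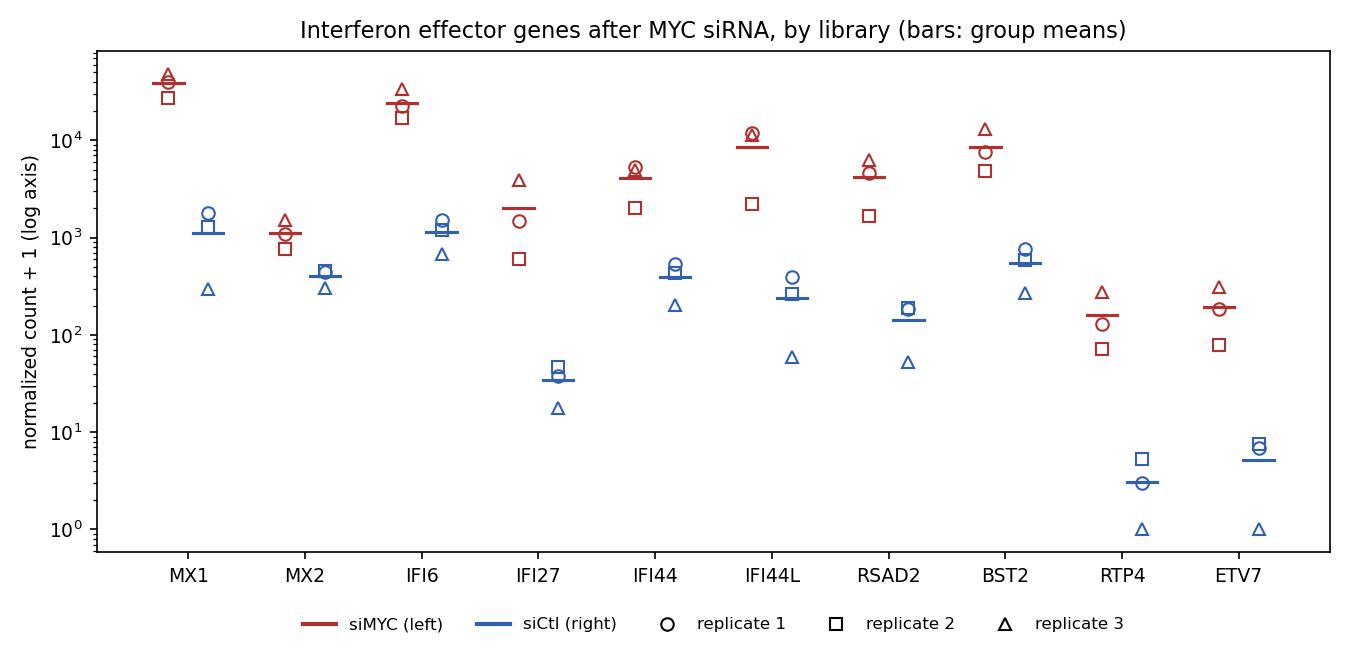
Normalized count plus 1 (vertical log axis) of the 10 genes in 3 siMYC libraries (red, left) and 3 siCtl libraries (blue, right), with symbols for replicate numbers and bars for group means. No gene overlaps between the groups, and the gap is smallest for MX2, whose lowest siMYC library is 1.68 times the highest siCtl library. The genes were chosen with this contrast in view, so nothing is read from the lack of overlap.

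Other genes of the interferon pathway were read from 6 lists of 79 genes, of which 32 were other interferon-induced effectors and 5 feedback regulators. The other effectors made up 30 of the higher calls that follow. Of the 64 tested, 47 were called higher in siMYC and 0 lower, with a median log2 difference of 2.48. Beside the counts here and in the next paragraph, 11.4% of all genes were called higher and 4.78% lower. Since the effectors were chosen on the same contrast, these counts are given as a description. The receptors and Janus kinases held 0 calls among 8 genes, while 7 of 9 STAT and IRF factors and 7 of 10 sensors and adaptors were called higher. IRF7, which amplifies interferon production, differed by 2.82, STAT2 by 2.49 and IRF1 by 1.46 on the log2 scale. Among sensors of double-stranded RNA, IFIH1 differed by 3.42, DHX58 by 3.13 and RIGI, listed as DDX58, by 2.67. ZBP1, a sensor of Z-form nucleic acids, averaged 66.5 ± 69.4 in siMYC and was listed at 0 in all siCtl libraries.

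The feedback regulators held 3 higher calls among 5, with USP18, which removes ISG15 and dampens the receptor, at a log2 difference of 4.86, TRIM21 at 2.05 and SOCS1 at 1.33. Of the other interferon-induced effectors, 30 of 31 were called higher in siMYC, with a median of 3.24. TRIM22 differed by 5.99, the 2-5A synthetases OAS1 by 5.71 and OAS2 by 5.47, and CMPK2, the neighbour of RSAD2, by 5.09. TRIM22 averaged 504.8 normalized counts in siMYC and 5.26 in siCtl. Like ZBP1, TRIM22 passed the minimum mean of 10 only through siMYC. Of the 13 interferon genes listed as ligands, 1 was in the table, and it was not called.

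In the inhibitor experiment 8 of the 10 genes were abundant under vehicle, while RTP4 averaged 30.85 and ETV7 27.42 normalized counts in VEH. MX1 averaged 14132 ± 3911 normalized counts in VEH (SD, n = 3). Per kilobase of exon, IFI6 had the highest level in VEH, with 7490 normalized counts per kb, followed by BST2 with 3811 and MX1 with 3499, which did not differ from each other beyond their spread. IFI44 with 816.3 and IFI27 with 785.1 did not differ beyond their spread. IFI44L with 453.4 and RSAD2 with 390.5 overlapped in range, and IFI44L lay above RSAD2 in every VEH library. MX2 had 181.7 normalized counts per kb, and RTP4 with 19.9 and ETV7 with 11.6 were the lowest. These 2 overlapped in range, and RTP4 lay above ETV7 in every VEH library. In siMYC IFI6 also led, with 28184 normalized counts per kb, and ETV7 was last with 80.4.

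KJ-PYR-9 alone was set against VEH to ask how the genes moved over 3 h with the compound. IFI44 had 741.4, 734.6 and 645.9 normalized counts in KJ-PYR-9, against 1703, 1119 and 1310 in VEH. IFI44L had 1189, 975.9 and 1458 in KJ-PYR-9, against 3477, 1627 and 2885 in VEH. Both genes fell, IFI44 by 0.94 in log2 units (SE 0.23, limma adjusted p = 0.01) and IFI44L by 1.09 (SE 0.31, limma adjusted p = 0.0185). The call of IFI44L was lost without VEH 1 (limma adjusted p = 0.0775), without VEH 3 (limma adjusted p = 0.0504) or without KJ-PYR-9 2 (limma adjusted p = 0.0634).

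BST2, IFI27 and IFI6 had higher means in KJ-PYR-9 on the scale of the deposited size factors. BST2 had 5718, 5135 and 7150 normalized counts in KJ-PYR-9, against 3687, 2704 and 5258 in VEH. IFI27 had 964, 785.7 and 1363 in KJ-PYR-9, against 580.5, 398.4 and 969 in VEH. IFI6 had 8349, 7995 and 9551 in KJ-PYR-9, against 6035, 4484 and 8918 in VEH. The groups overlapped in all 3 genes, and on this scale each pair of libraries with the same replicate number was higher in KJ-PYR-9. MX1 had 15444, 14892 and 21823 in KJ-PYR-9, against 15617, 9696 and 17083 in VEH, and was higher in 2 of 3 pairs.

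Libraries with the same replicate number deviated together in this experiment, so a fit with the replicate number as a block bears on these values. Some libraries of replicates 1 and 2 deviated together as well (r up to 0.398), so the numbers part these libraries incompletely. Without the block, 0 of the 10 genes were called higher and 2 lower, where 25.4% of all genes were called higher and 17.5% lower. With the block, 4 were called higher and 2 lower, where 32.2% of all genes were called higher and 25.8% lower. These shares are near the background, so the counts say little about the 10 genes as a group. The 4 were IFI27, with a log2 difference of 0.73 (SE 0.11, limma adjusted p = 0.000623), BST2 with 0.67 (SE 0.12, limma adjusted p = 0.00168), IFI6 with 0.47 (SE 0.14, limma adjusted p = 0.0191) and MX1 with 0.32 (SE 0.12, limma adjusted p = 0.0433). Without the block their adjusted p was 0.152 for IFI27, 0.0892 for BST2, 0.205 for IFI6 and 0.334 for MX1 in limma.

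These 4 calls depended on the scaling. Dividing by the total reads of each library, an alternative chosen after seeing the data, put the median of all genes at -0.40, against 0.062 with the deposited size factors. It called 4.86% of all genes higher and 37.6% lower without the block, and 7.88% higher and 42.3% lower with it. On this scale 0 of the 10 genes were called higher with or without the block. With the block, IFI27 stood at 0.27 (limma adjusted p = 0.262), BST2 at 0.21 (limma adjusted p = 0.445), IFI6 at 0.01 (limma adjusted p = 0.984) and MX1 at -0.14 (limma adjusted p = 0.554). IFI27 remained higher in 3 of 3 pairs, BST2 and IFI6 were higher in 2 of 3, and MX1 in 1 of 3. IFI44, at -1.40, and IFI44L, at -1.55, were called lower with and without the block on this scale too, and RSAD2, at -0.68, was called lower with the block (limma adjusted p = 0.0156).

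With the deposited size factors RSAD2 had 1147, 916.5 and 1394 normalized counts in KJ-PYR-9, against 1639, 876.9 and 1607 in VEH, and was not called with or without the block. MX2, RTP4 and ETV7 were not called either, with log2 differences of 0.21, -0.04 and 0.56, while MX2 turned to -0.25 with scaling by total reads. RTP4 lay between 23.8 and 35.7 in KJ-PYR-9 and between 15.6 and 39.1 in VEH. ETV7 lay between 33.9 and 50.2 in KJ-PYR-9 and between 21.8 and 34.4 in VEH, and was higher in 3 of 3 pairs under both scalings. The median log2 difference of the 10 genes was 0.26, against 0.062 over all genes tested.

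**Figure D3:**
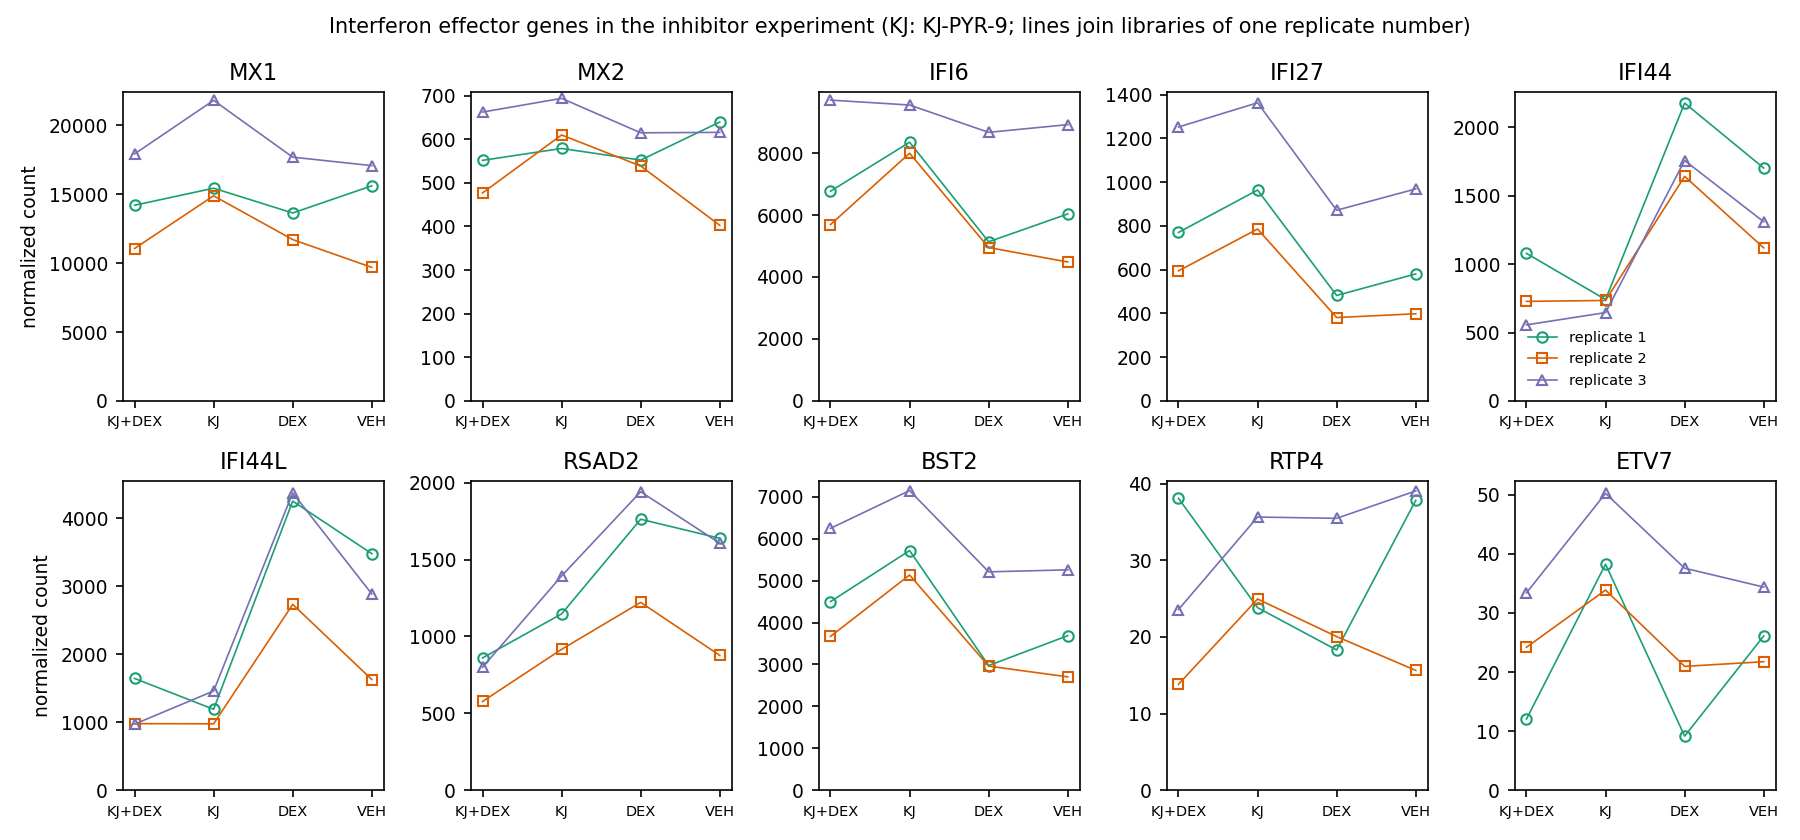
Normalized count (vertical linear axes from 0) of the 10 genes in the KJ-PYR-9+DEX, KJ-PYR-9, DEX and VEH libraries, with lines that join libraries of the same replicate number. IFI44 and IFI44L are lower in both groups with KJ-PYR-9, while MX1, IFI6, IFI27, BST2 and ETV7 have replicate 3 highest in all 4 groups.

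DEX alone against VEH gave no call among the 10 genes, where 17.5% of all genes were called in either direction. Without the replicate block 0 of the 10 had an unadjusted p under 0.05 in limma, and 0 were called by edgeR or by DESeq2. With the replicate block 0 were called too, where 43.5% of all genes were called. There IFI44, IFI44L and RSAD2 had an unadjusted p under 0.05 in limma. IFI44 had 2178, 1642 and 1758 normalized counts in DEX, against 1703, 1119 and 1310 in VEH. IFI44L had 4250, 2732 and 4372 in DEX, against 3477, 1627 and 2885 in VEH. Both overlapped between the groups and were higher in DEX in all 3 pairs on this scale, with log2 differences of 0.44 for IFI44 (SE 0.23, limma adjusted p = 0.182) and 0.55 for IFI44L (SE 0.31, limma adjusted p = 0.215). With the block these stood at an adjusted p of 0.051 for IFI44 and 0.0542 for IFI44L in limma. RSAD2 was also higher in 3 of 3 pairs, by 0.29 on the log2 scale, and the other 7 genes lay between -0.45 and 0.07. With scaling by total reads, which put the median of all genes at -0.24, 0 of the 10 were called with or without the block. There 2.87% of all genes were called higher and 14.8% lower without the block, and 4.86% higher and 23.7% lower with it. IFI44 then stood at 0.18, IFI44L at 0.28 and RSAD2 at 0.02, and all 3 were higher in DEX in 2 of 3 pairs.

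In KJ-PYR-9+DEX against DEX, IFI44, IFI44L and RSAD2 were the genes called without the block. IFI44 had 1079, 728.1 and 556.2 normalized counts in KJ-PYR-9+DEX, against 2178, 1642 and 1758 in DEX. IFI44L had 1643, 978 and 970.8 in KJ-PYR-9+DEX, against 4250, 2732 and 4372 in DEX. RSAD2 had 860.5, 577.1 and 799.9 in KJ-PYR-9+DEX, against 1763, 1222 and 1942 in DEX. The 3 genes fell, in log2 units by 1.28 for IFI44 (SE 0.23, limma adjusted p = 0.000815), by 1.67 for IFI44L (SE 0.31, limma adjusted p = 0.000922) and by 1.13 for RSAD2 (SE 0.28, limma adjusted p = 0.00424). These 3 calls held without any 1 library and with scaling by total reads, at -1.34 for IFI44, -1.74 for IFI44L and -1.19 for RSAD2. They make 3 of 10 genes lower and 0 higher, where 35.1% of all genes were called lower and 33.6% higher, so the share of lower calls is close to the background.

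IFI27 had 770.2, 594.4 and 1252 normalized counts in KJ-PYR-9+DEX, against 482, 381 and 871.6 in DEX. BST2 had 4499, 3669 and 6248 in KJ-PYR-9+DEX, against 2974, 2960 and 5210 in DEX. Both overlapped between the groups and were higher in all 3 pairs. With the replicate block IFI27 was called higher, with a log2 difference of 0.61 (SE 0.11, limma adjusted p = 0.000728), and BST2 with 0.39 (SE 0.12, limma adjusted p = 0.0156). The block thus called 2 of the 10 genes higher and 3 lower, where 37.1% of all genes were called higher and 38.2% lower. Without the block the adjusted p was 0.189 for IFI27 and 0.259 for BST2 in limma. With scaling by total reads and the block, IFI27 was called, at 0.55 (limma adjusted p = 0.027), and BST2 was not, at 0.33 (limma adjusted p = 0.192), with 2 of 3 pairs higher.

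MX1, MX2, RTP4 and ETV7 were not called in KJ-PYR-9+DEX against DEX, with log2 differences of -0.0018, -0.02, -0.02 and 0.13. MX1 had 14205, 11065 and 17933 in KJ-PYR-9+DEX, against 13645, 11714 and 17699 in DEX. IFI6 differed by 0.25 (SE 0.29, limma adjusted p = 0.448) and was higher in 3 of 3 pairs, or in 2 of 3 with scaling by total reads.

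**Figure D4:**
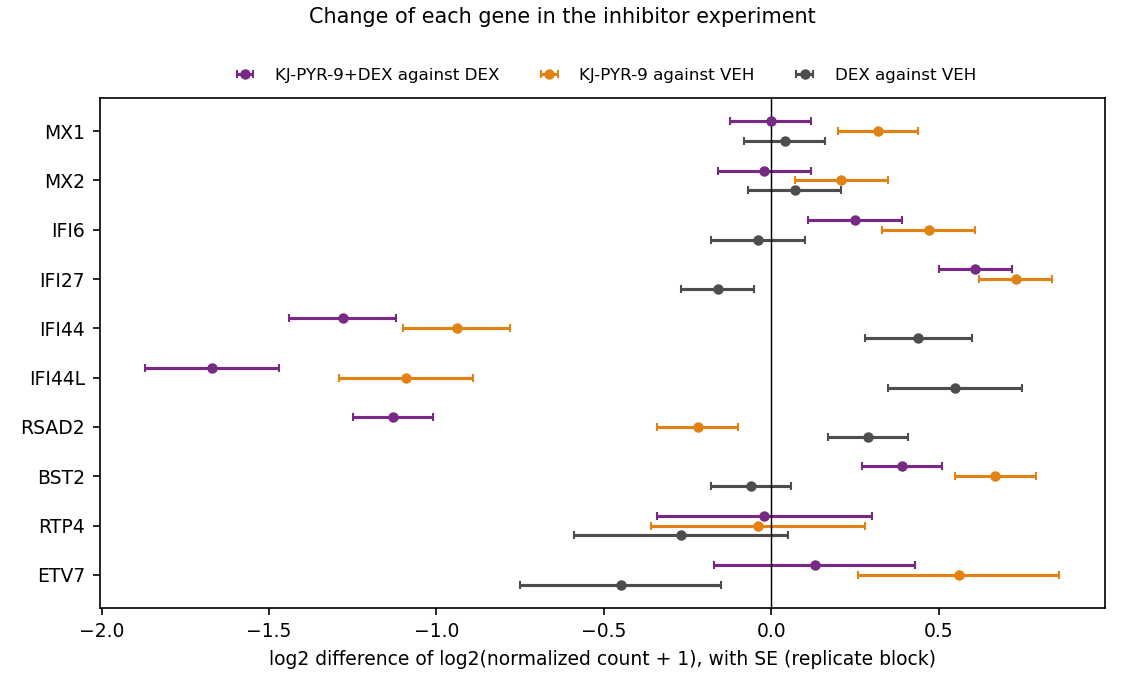
Log2 difference of each gene, with the deposited size factors, with its SE from the fit with the replicate block (horizontal axis), for KJ-PYR-9+DEX against DEX (purple), KJ-PYR-9 against VEH (orange) and DEX against VEH (grey). IFI44 and IFI44L lie at -0.94 or below in both comparisons of KJ-PYR-9, IFI27 lies at 0.61 and 0.73, and RSAD2 lies at -1.13 with DEX and at -0.22 without it.

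These comparisons share libraries, VEH between KJ-PYR-9 and DEX, and DEX between DEX and KJ-PYR-9+DEX. The interaction, the effect of KJ-PYR-9 with DEX minus its effect without DEX, called 0 of the 10 genes, where 16.8% of all genes were called. The count at an unadjusted p under 0.05 was 1 in limma, and edgeR and DESeq2 called 0. That gene was RSAD2, whose interaction was -0.91 in log2 units (SE 0.40, limma adjusted p = 0.141). With the replicate block the SE of RSAD2 was 0.17 and it was called (limma adjusted p = 0.0049), as 1 of 10 lower and 0 higher where 20% of all genes were called lower and 12.4% higher. IFI44, at -0.34, and IFI44L, at -0.58, were not called with or without the block. With scaling by total reads, where the median interaction of all genes was 0.29, RSAD2 stood at -0.51 and was called neither without the block (limma adjusted p = 0.429) nor with it (limma adjusted p = 0.218).

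The level of MYC transcript differed widely among these groups, and it is given after its values were seen. MYC averaged 4160 ± 440 normalized counts in KJ-PYR-9+DEX, 9853 ± 1408 in KJ-PYR-9, 18424 ± 1364 in DEX and 1806 ± 598 in VEH (SD, n = 3 each). The 3 listed leukocyte markers had summed levels of 206.6 to 326.2 in KJ-PYR-9+DEX, 249 to 320.9 in KJ-PYR-9, 88.5 to 119.4 in DEX and 116.6 to 146.9 in VEH. The sums in the groups with KJ-PYR-9 thus lay above those in DEX and VEH, mostly through CORO1A, while PTPRC stayed at or under 18.3. The part of these markers in the differences of the 10 genes was not tested.

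Among the pathway genes, 11 of 63 were called higher and 15 lower in KJ-PYR-9 against VEH, with a median log2 difference of -0.06. Of all genes 25.4% were called higher and 17.5% lower, so these shares are near the background. With scaling by total reads 3 of the 63 pathway genes were called higher and 28 lower, beside 4.86% and 37.6% of all genes. The pathway genes named here and in what follows passed the threshold of limma with the deposited size factors, and their changes are in log2 units. Those called higher here that were not called with scaling by total reads are TYK2, IRF7, IRF3, USP18, ISG20 and IFITM1. JAK2 fell by 1.10 and IFNAR1 by 0.69, while TYK2 rose by 1.02. IRF7 rose by 0.85 and IRF3 by 0.65. Of the sensors, EIF2AK2, the kinase PKR, fell by 1.45, TBK1 by 1.14 and CGAS by 0.53. The feedback regulators SOCS1 and SOCS3, which inhibit the Janus kinases, rose by 1.66 and 1.38, and USP18 by 0.71. Of 31 other effectors, 5 were called higher and 9 lower, with IFITM3, a membrane protein against viral entry, at 1.47, ISG20 at 1.24, IFITM1 at 1.17 and SAMD9 at -1.39.

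In DEX against VEH, 4 of 63 pathway genes were called higher and 0 lower, and with the replicate block 20 were called higher and 3 lower. The higher calls without the block stand beside 9.5% of all genes, and with it beside 23.9%, and the lower calls with the block beside 19.6%. The 4 were SOCS1 with 1.21, the DNA-binding sensor IFI16 with 0.97, IFNGR1, a chain of the interferon gamma receptor, with 0.88, and EPSTI1 with 0.66, of which SOCS1 was also called with scaling by total reads. In KJ-PYR-9+DEX against DEX, 7 of 63 were called higher and 32 lower, with a median of -0.41, against 0.001 over all genes, where 33.6% of all genes were called higher and 35.1% lower. With scaling by total reads 5 were called higher and 32 lower, where 27.4% of all genes were called higher and 33.3% lower. IFNE, the epithelial interferon epsilon, averaged 0.768 ± 1.33 in KJ-PYR-9+DEX and 31.8 ± 4.65 in DEX (SD, n = 3 each). It was highest in DEX and passed the minimum mean of 10 in large part through DEX. Its calls in this comparison and in the interaction are therefore a description. SAMD9 fell by 2.48, TLR3 by 2.11, SAMD9L by 2.10, IFIT2 by 2.00, TBK1 by 1.80, IFI16 by 1.74, JAK2 by 1.46 and CGAS by 1.28, while TYK2 rose by 1.07. The interaction called 0 of 63 pathway genes higher and 7 lower, where 7.15% of all genes were called higher and 9.62% lower. With the block it called 1 higher and 18 lower, where 12.4% of all genes were called higher and 20% lower. Among the 7 were IFIT2 with -1.84 and SOCS1 with -1.56. With scaling by total reads 0 were called higher and 4 lower, IFIT2 and SOCS1 among them, where 10.8% of all genes were called higher and 3.13% lower.

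Over the 12 inhibitor libraries the 10 genes did not share 1 profile. The mean of their standardized levels correlated with MX1 (Pearson r = 0.95), MX2 (0.89), RTP4 (0.85), IFI6 (0.82), BST2 (0.76) and IFI27 (0.75), with RSAD2 (0.66) and ETV7 (0.56), and little with IFI44L (0.31) and IFI44 (0.02). IFI44 and IFI44L correlated with each other (r = 0.94, 12 libraries) and IFI44L with RSAD2 (r = 0.85). These are descriptions over libraries that share treatments and replicate numbers. Replicate 3 was the highest in all 4 groups for MX1, IFI6, IFI27, BST2 and ETV7, and replicate 2 the lowest in all 4 for MX1, IFI6, IFI27, RSAD2 and BST2. Of 13606 other genes, those most like the mean profile were OAS1 (r = 0.97), APOBEC3F (0.96), PLAAT4 (0.95), STAT2 (0.94) and KCND1 (0.90). OAS1 had 2018, 1504 and 2003 normalized counts in KJ-PYR-9+DEX, 2000, 2073 and 2539 in KJ-PYR-9, 2044, 1832 and 2469 in DEX, and 2291, 1457 and 2388 in VEH.

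In MB3 against VEH2, 0 of the 5 listed genes were called, where 0.0597% of all genes, 6 in number, were. With the replicate block 0 were called, where 0.139% of all genes were. Without the block 0 had an unadjusted p under 0.05 in limma, and with it IFI6 had 1 of 0.0242. Neither edgeR nor DESeq2 was run. MX1 had 362.7, 499.6 and 610.2 normalized counts in MB3, against 610.3, 468.4 and 604.5 in VEH2. IFI6 had 272.1, 545.9 and 825 in MB3, against 593.4, 679.6 and 910.6 in VEH2. Both overlapped between the groups, and IFI6 was lower in 3 of 3 pairs, by 0.53 in log2 units (SE 0.36, limma adjusted p = 0.521; with the replicate block SE 0.18, adjusted p = 0.21). BST2 had 155.2, 178.6 and 226.5 in MB3, against 123, 170.8 and 251 in VEH2. MX2 differed by -0.10 (SE 0.12), IFI44 by 0.08 (SE 0.26) and BST2 by 0.08 (SE 0.25). KAT2A, the target of MB-3, averaged 422 ± 64.8 in MB3 and 483 ± 59.2 in VEH2, and was not called. SOCS3 was the 1 called gene among 44 pathway genes, lower by 1.28, and it was not called with scaling by total reads (limma adjusted p = 0.0507).

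In reads per M recovered reads (RPM), the starting level of the genes differed between the experiments. MX1 averaged 1819 RPM in siMYC and 55.2 in siCtl, 1194 in VEH, and 43.7 in VEH2. The siCtl and VEH2 cells were thus alike in order of magnitude, and the VEH cells of the inhibitor experiment lay near siMYC. The 10 genes together took 0.171% to 0.226% of the reads in KJ-PYR-9+DEX, 0.201% to 0.257% in KJ-PYR-9, 0.182% to 0.326% in DEX and 0.182% to 0.316% in VEH. Since the tables were normalized and filtered separately, these levels are set side by side without a test, and culture, time and library preparation cannot be told apart.

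**Figure D5:**
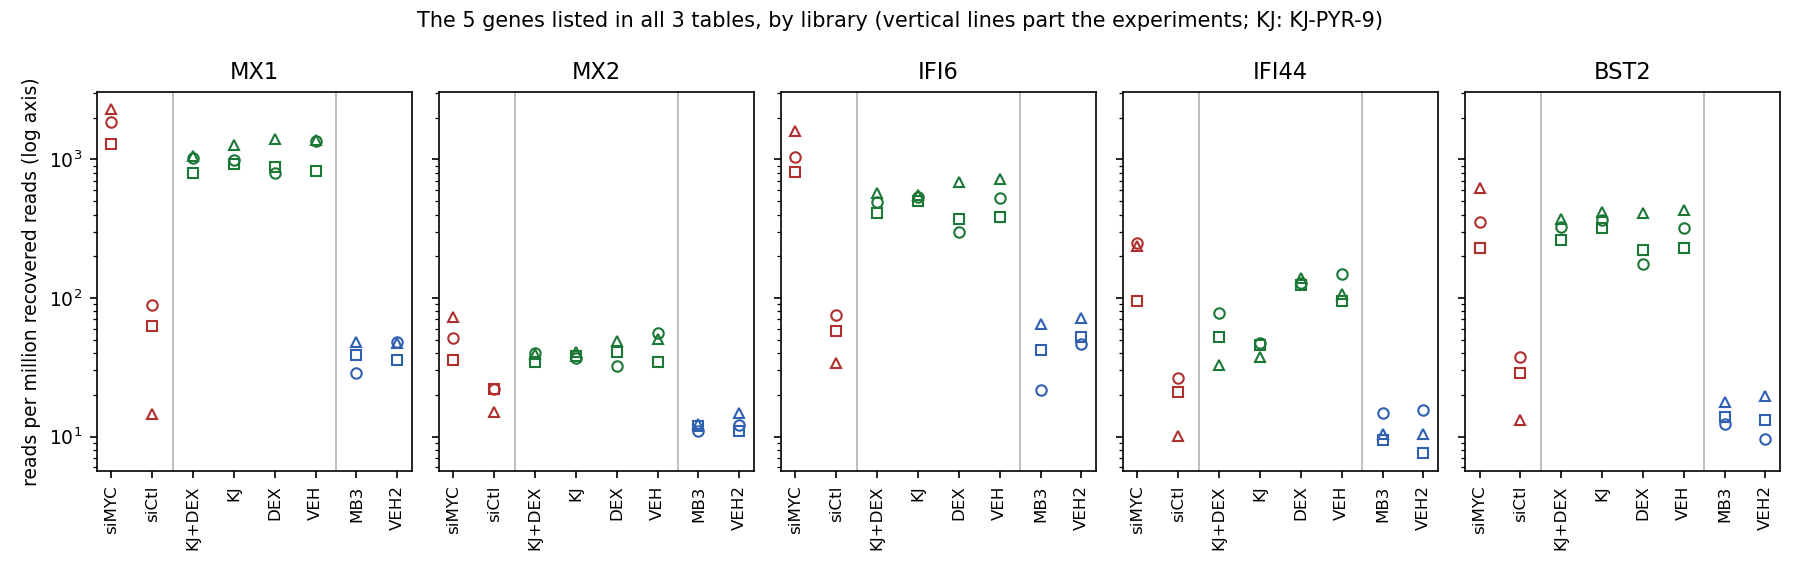
RPM (vertical log axis) of the 5 genes listed in all 3 tables, by library, in siMYC and siCtl (red), KJ-PYR-9+DEX, KJ-PYR-9, DEX and VEH (green), and MB3 and VEH2 (blue). MX1 averages 1819 in siMYC, 55.2 in siCtl, 1194 in VEH and 43.7 in VEH2.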

How the data were processed

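Levels were the deposited signal, normalized counts per gene that the submitters' processing notes credit to DESeq2. The notes also name bcl2fastq, SAMtools, featureCounts and GRCh38. The aligner, annotation, strandedness and tool versions are not given in the sources used here. Dividing by the value of 1 read gave whole reads (tolerance 0.0001) in all 24 libraries. The test was limma 3.58.1 (R 4.3.3), two-sided and applied to log2(value + 1) of genes with a mean of 10 or more, with Benjamini-Hochberg adjustment over every gene tested and 0.05 as threshold. The test was tried on simulated data. The 12 inhibitor libraries shared 1 fit. edgeR 4.0.16 and DESeq2 1.42.0 on recovered reads, a replicate block, other pseudocounts and filters, other scaling and leaving out each library were alternatives. Scaling recovered reads by the total reads of each library, unnamed features included, was added after seeing the data. Unnamed features entered no test, and they held 1.618% to 26.04% of the reads of the inhibitor libraries. Features that share a symbol were summed.

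Same-numbered libraries pair where every correlation of their deviations exceeds 0.1. It was 0.190 to 0.702 over 18 pairs of the inhibitor experiment and 0.208 to 0.389 over 3 pairs in the MB-3 experiment, which pair. Between libraries with other numbers it was -0.681 to 0.398 in the inhibitor experiment, with 6 of 36 over 0.1. In the MB-3 experiment it was -0.329 to 0.194, with 1 of 6 over 0.1. Exon lengths per kb come from GENCODE. Of 18154 symbols, 17433 matched RefSeq. The 10 genes and the lists were chosen with earlier results of these data known. Pathway genes named are up to 4 called genes of each list with the largest change, and profile-like genes are the 5 with the highest correlation. Where nothing says how replicates were made, p-values measure the spread between these libraries, which may be technical. The depth sets the counting error of low genes such as RTP4 and ETV7. The results of some pathway genes that this rule names are not reported here.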

Additional observations from a re-analysis of the deposited data

Results flagged for a closer look

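RSAD2 met the condition of an effect that differs between treatments in a test of the difference itself. With the replicate number as a block, the effect of KJ-PYR-9 with DEX minus its effect without DEX was -0.91 in log2 units (SE 0.17, limma adjusted p = 0.0049). Without the block the same difference had an SE of 0.40 and missed the threshold (limma adjusted p = 0.141). The pairs moved by -1.03, -1.08 and -1.28 in KJ-PYR-9+DEX against DEX, and by -0.52, 0.06 and -0.20 in KJ-PYR-9 against VEH. With scaling by total reads, chosen after seeing the data, the median of all genes was 0.29 and RSAD2 stood at -0.51, past the threshold neither without the block (limma adjusted p = 0.429) nor with it (limma adjusted p = 0.218). The pairs then moved by -0.73, -1.15 and -1.69 in KJ-PYR-9+DEX against DEX, and by -0.97, -0.38 and -0.69 in KJ-PYR-9 against VEH, so that pair 1 fell less with DEX than without it. No other gene of the 10 met the condition.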

How the results depend on the processing

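Other pseudocounts, no filter on low values, TMM scaling and fitting only the groups compared changed no call or sign of the 10 genes. For the interaction no fit of only the groups compared exists, and edgeR and DESeq2 were not run for MB-3. With the replicate block, genes called numbered 470 in siMYC, 5925 in DEX, 4399 in the interaction and 14 in MB3. Members called numbered 6 in KJ-PYR-9, 5 in KJ-PYR-9+DEX and 1 in the interaction, and pathway calls 23 in DEX and 19 in the interaction. Of all genes the block called 58% in KJ-PYR-9, 75.3% in KJ-PYR-9+DEX, 43.5% in DEX and 32.3% in the interaction. With the deposited size factors the block changed no other call of the 10 genes. The knockdown replicates did not pair (r -0.479 to -0.031 over 3 pairs), so its block fit shares only a number. DESeq2 gave 3782 calls in siMYC and 3737 in DEX. DEX pathway calls were 7 at a mean of at least 50, 8 with trended robust variance, 7 by edgeR and 10 by DESeq2, and MB3 calls were 11 with trended robust variance. The cause was not tested. Scaling by total reads, chosen after seeing the data, turned the sign of genes that were not called without the block. It put MX1 at -0.14 and MX2 at -0.25 in KJ-PYR-9, MX1 at -0.22 and MX2 at -0.19 in DEX, and in the interaction MX1 at 0.08, MX2 at 0.17, IFI6 at 0.19, IFI27 at 0.28, IFI44 at 0.06 and BST2 at 0.12. Of these, MX1 in KJ-PYR-9 was called higher with the block and the deposited size factors. Pathway calls were then 2 in DEX, 4 in the interaction with and without the block, 0 in MB3 and, with the block, 40 in KJ-PYR-9. Of all genes this scaling called 2.87% higher and 14.8% lower in DEX, and with the block 7.88% higher and 42.3% lower in KJ-PYR-9. In the interaction it called 10.8% higher and 3.13% lower without the block, and 15.5% higher and 4.36% lower with it. Genes called were 1 in MB3, and with the block 636 in siMYC, 3899 in DEX and 14 in MB3. With the block it also called RSAD2 in KJ-PYR-9, at -0.68, and IFI27 in KJ-PYR-9+DEX, at 0.55. Small differences changed sign: MX1 in DEX was -0.0033 by edgeR, and in KJ-PYR-9+DEX MX1 was 0.01 by edgeR and 0.02 by DESeq2, and ETV7 -0.10 and -0.06.

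Leaving out 1 library, genes called ranged from 432 (without siCtl 3) to 3983 (without siMYC 1) in siMYC, 3393 to 5433 in KJ-PYR-9, 865 (without DEX 1) to 3620 in DEX, 1469 to 2731 in the interaction and 1 to 3 in MB3. Members called ranged from 1 to 2 in KJ-PYR-9. Pathway calls ranged from 13 to 24 in KJ-PYR-9, 2 to 8 in DEX, 4 to 11 in the interaction and 0 to 1 in MB3. Signs turned for uncalled genes, over log2 ranges of -0.0044 to 0.33 for MX2 and -0.46 to 0.17 for RTP4 in KJ-PYR-9. In DEX they were -0.21 to 0.20 for MX1, -0.14 to 0.19 for MX2, -0.30 to 0.22 for IFI6, -0.50 to 0.17 for IFI27, -0.01 to 0.48 for RSAD2, -0.33 to 0.18 for BST2 and -0.90 to 0.06 for ETV7. In KJ-PYR-9+DEX they were -0.17 to 0.17 for MX1, -0.15 to 0.09 for MX2, -0.36 to 0.34 for RTP4 and -0.38 to 0.59 for ETV7. In the interaction they were -0.47 to 0.05 for IFI6, -0.46 to 0.22 for IFI27, -0.32 to 0.44 for RTP4 and -0.94 to 0.03 for ETV7. In MB3 they were -0.19 to 0.02 for MX2, -0.16 to 0.34 for IFI44 and -0.17 to 0.35 for BST2. BST2 in KJ-PYR-9 passed without VEH 3 (0.91, limma adjusted p = 0.0373). Depth limits RTP4 and ETV7, with 6 and 12 reads over the siCtl libraries.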

Other observations

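Close relatives of these genes were read in the inhibitor experiment, where 3 of the 6 chosen were tested. In KJ-PYR-9+DEX against DEX, 33.6% of all genes were called higher and 35.1% lower. In KJ-PYR-9 against VEH 25.4% were called higher, and in DEX against VEH 8.02% lower. With 3 genes, nothing is read from the number of calls. IFI27L1 and IFI27L2, relatives of IFI27, were higher in KJ-PYR-9+DEX than in DEX, by 0.73 (SE 0.17, limma adjusted p = 0.00283) and by 1.01 (SE 0.24, limma adjusted p = 0.00329) on the log2 scale. ETV6, the ETS repressor related to ETV7, was lower in the same comparison, by 0.89 (SE 0.17, limma adjusted p = 0.00111), and averaged 439 ± 82.4 normalized counts in KJ-PYR-9+DEX and 812 ± 117 in DEX (SD, n = 3 each). In KJ-PYR-9 against VEH, IFI27L2 was called higher, by 0.79 (SE 0.24, limma adjusted p = 0.0221), and IFI27L1 and ETV6 were not called, while with scaling by total reads IFI27L2 stood at 0.33 and was not called (limma adjusted p = 0.279). In DEX against VEH, IFI27L1 was lower by 0.55 (SE 0.17, limma adjusted p = 0.0427). The calls in KJ-PYR-9+DEX against DEX and that of IFI27L1 in DEX against VEH held with scaling by total reads.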
